A study of Mus musculus with 2 samples.

Results

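The canonical histone genes were described in single cells of mouse small intestinal organoids, cultured epithelial structures that hold dividing crypt-like cells and differentiated cells. The genes were chosen by name and detection: every gene whose symbol begins with Hist1h, Hist2h, Hist3h or Hist4h and that had at least 10 UMIs in the kept cells (unique molecular identifiers, each marking 1 captured RNA molecule). This gave 62 of the 67 histone genes by symbol, out of 31053 genes in the gene list. The least detected of the 62, Hist1h1t, had 18 UMIs, and of the 5 genes left out Hist1h2aa had 2 and Hist1h2ba, Hist1h2bq, Hist1h4m and Hist2h2aa2 had 0. By chromosome, 50 of the 62 lie on chromosome 13, 9 on chromosome 3, 2 on chromosome 11 and 1 on chromosome 6.

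The study set control organoids beside melatonin-treated organoids, and the labels give no strain, sex, age or dose. Per the labels, cells of 3 independent organoid lines were pooled for each group on culture day 3, and libraries were made with a 3′ droplet method, which primes on poly(A) tails. The 3 files of the melatonin sample were identical to the 3 files of the control sample, so they were treated as 1 sample and nothing was compared between control and melatonin. Its barcodes end in 1 or 2, nothing in the files or labels ties either suffix to a treatment, and the cells are given below as barcode sets 1 and 2.

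Barcodes needed 500 genes or more, 1000 UMIs or more and no more than 20% of UMIs from mitochondrial genes, and 4066 were kept, 2300 in set 1 and 1766 in set 2, with a median of 29222 UMIs; none of the kept barcode sequences occurred with both suffixes. Cells were called G1, S or G2M from 39 S-phase genes and 52 G2M genes, none of them a histone gene. This gave 1194 cells called G1 (median 17028 UMIs), 760 called S (28362.5 UMIs) and 2112 called G2M (36359.5 UMIs). Markers of the epithelial lists were all detected, while of 5 immune and 5 mesenchymal markers 4 each were detected, at a summed 1.23 and 4.29 CPM (UMIs per 1000000 UMIs), with Ptprc and Col3a1 at 0. Cells called G1 differed from the others in markers too: the 7 enteroendocrine markers summed to 16864 CPM in G1, 151 CPM in S and 186 CPM in G2M, and the 7 enterocyte markers to 15408, 2413 and 2236 CPM. The nuclear RNA Malat1 was at 14989, 4322 and 4279 CPM. Apart from the comparisons within gates and depth classes below, the part of these differences in the histone values was not tested. There are no replicate samples, so no test was run; intervals in parentheses are exact 95% intervals that cover counting error only.

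Histones package DNA, and dividing cells make most of them while DNA is copied. The messenger RNAs of replication-dependent histone genes normally end in a short stem-loop and carry no poly(A) tail: stem-loop binding protein holds the stem-loop, the U7 small nuclear RNP guides the cut just past it, and the RNA is degraded when replication stops. Some of these genes also give polyadenylated RNA that ends past the stem-loop, and are known to be expressed in cells that have left the cycle. A method that primes on poly(A) sees only part of canonical histone RNA, so the values below are levels of what was captured.

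The stem-loop letters did not separate genes that were higher in S from genes that were lower. Below, the stem-loop is in capitals with the bases around it, read from the GENCODE M21 transcripts at the first match after the stop codon; Hist1h3c was added to the genes named by rule after its values were seen. The first 4 genes were higher in S than in G1 and the last 4 lower.
Hist1h2ap: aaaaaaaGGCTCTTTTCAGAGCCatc
Hist1h2ae: aaacaaaGGCTCTTTTCAGAGCCattcact
Hist1h3c: aaaaaaaGGCTCTTTTAAGAGCCacctaag
Hist1h4d: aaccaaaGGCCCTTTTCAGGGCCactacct
Hist1h1c: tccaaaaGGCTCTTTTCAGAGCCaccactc
Hist3h2a: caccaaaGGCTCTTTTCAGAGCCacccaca
Hist3h2ba: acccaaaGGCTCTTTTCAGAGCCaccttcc
Hist2h3c1: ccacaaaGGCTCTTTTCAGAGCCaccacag
The histone stem-loop motif of 16 bases, with its stem and loop letters fixed apart from 5 positions, was searched on the transcript strand and found in 42 of the 62 genes and in 61 of 21193 genes with an annotated 3′ UTR (0.288%). The form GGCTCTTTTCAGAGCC was in 25 genes, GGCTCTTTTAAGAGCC and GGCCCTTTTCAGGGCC in 6 each. Hist1h2ap and Hist1h2ae, higher in S, have the same 16 letters as Hist1h1c, Hist3h2a, Hist3h2ba and Hist2h3c1, lower in S. No 3′ UTR is annotated for 11 of the 62, so no match says only that these letters are not in the annotated window.

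The annotated transcripts differ in how far they run past the stem-loop. In Hist1h2ap the annotation ends 3 bases after it and in Hist1h3c 74 bases after it. It runs on for 169 bases in Hist3h2ba, 840 in Hist1h1c, 1167 in Hist2h3c1 and 1643 in Hist3h2a. Hist1h2ae and Hist1h4d, which were higher in S, also run on, for 151 and 770 bases.

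The promoters of the genes with the highest and the lowest ratio of S over G1 are shown as the 250 bases before the RefSeq start (build GRCm38.p6; the build of the deposited counts is not given in the sources used here). Capitals mark matches on either strand to 3 motifs. The TATA motif was searched as TATAAA, which reads TTTATA when reversed. The CCAAT motif was searched by the 5 letters of its name, which read ATTGG when reversed. The octamer was searched as ATTTGCAT, which reads ATGCAAAT when reversed.
Hist1h1b (chr13:21780626-21780875, minus strand): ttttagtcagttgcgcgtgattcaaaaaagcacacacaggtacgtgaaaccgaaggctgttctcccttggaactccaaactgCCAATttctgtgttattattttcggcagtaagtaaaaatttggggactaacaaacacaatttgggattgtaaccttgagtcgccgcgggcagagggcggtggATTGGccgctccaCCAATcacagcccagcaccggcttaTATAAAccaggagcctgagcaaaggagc
Hist3h2ba (chr11:58948661-58948910, plus strand): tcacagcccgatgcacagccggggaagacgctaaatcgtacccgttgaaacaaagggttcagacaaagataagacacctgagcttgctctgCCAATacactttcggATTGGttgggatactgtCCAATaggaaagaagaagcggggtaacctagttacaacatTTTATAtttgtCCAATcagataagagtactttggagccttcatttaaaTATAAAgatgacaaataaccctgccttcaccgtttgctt
Promoters were matched for 57 of the 62 genes. From 250 bases before to 50 bases after the start, CCAAT was in 86.0% of them against 41.1% of 27025 promoters, TATAAA in 56.1% against 15.7%, and the octamer in 19.3% against 1.97%. The octamer was in 6 of 16 H2A and 5 of 14 H2B promoters and in 0 of 6 H1, 10 H3 and 11 H4 promoters. CCAAT was in 3 of 11 H4 promoters and in every matched H1, H2A, H2B and H3 promoter. Windows of neighbouring H2A and H2B genes that point away from each other can overlap, as those of Hist1h2ak and Hist1h2bn do. A site in the overlap counts for both genes, so these shares are not of separate promoters. A match to such short letters is a description of sequence, not a binding site.

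Histone UMIs were unevenly spread: the 62 genes held 76091 UMIs, 0.0675% of all UMIs, and 8 of them held 64.0% of these. They were the H2B gene Hist1h2bc (12059 UMIs), the H2A genes Hist1h2ap (8978), Hist1h2ae (3996) and Hist3h2a (1973), the linker histone genes Hist1h1e (5758), Hist1h1b (5744) and Hist1h1c (5651), and the H4 gene Hist1h4d (4509). In all 15 genes had at least 1000 UMIs and 10 had under 100. By class, the 6 H1 genes held 19717 UMIs, the 16 H2A genes 21558, the 16 H2B genes 19428, the 12 H3 genes 5632 and the 12 H4 genes 9756. Histone genes are near copies of each other. Of the 50-base windows in the last 400 bases of a gene's transcript, all were unique to the gene in 17 genes, under 50% in 34, and none in Hist1h1e, Hist1h2ap, Hist2h2aa1 and Hist2h3c1. Which copy the UMIs of such genes come from is uncertain.

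Most histone genes were higher in cells called S and G2M than in cells called G1, and a few abundant ones were lower. Summed over 8 genes described as giving polyadenylated mRNA (Hist1h1c, Hist1h2ac, Hist1h2bc, Hist1h2bk, Hist2h2aa1, Hist2h2be, Hist3h2a and Hist4h4), the level was 317 CPM (309.8 to 324) in G1, 146 CPM (141 to 152) in S and 187 CPM (183 to 189.9) in G2M. Summed over the other 54 genes, it was 119 CPM (115 to 124) in G1, 458 CPM (449 to 468) in S and 589 CPM (583 to 595) in G2M. The ratio of S over G1 was 0.462 (0.442 to 0.482) for the 8 genes and 3.84 (3.68 to 4.01) for the 54. Both barcode sets had this order: the 54 genes were at 142 CPM in G1 and 512 CPM in S in set 1, and at 105 and 423 CPM in set 2. The 8 genes were at 301 and 135 CPM in set 1 and at 327 and 154 CPM in set 2. Hist1h2bc alone held 62.1% of the UMIs of the 8 genes in G1.

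Gene by gene, 50 of the 62 were at least 1.5-fold higher in S than in G1, where 15.5% of the 15474 genes with at least 10 UMIs were, and 6 were at least 1.5-fold lower, where 41.5% were. The median log2 ratio was 1.44 over the 62 and -0.38 over all genes. Of the 54 genes 48 were higher and 3 lower, and of the 8 genes 2 were higher and 3 lower. The counting interval lay above 1 for 45 genes, where it did for 21.5% of all genes, below 1 for 6, where it did for 48.0%, and spanned 1 for 11. By class the median log2 ratio was 2.56 for H2A, 1.69 for H1, 1.46 for H2B, 1.34 for H3 and 1.03 for H4. Among cells past no cell type gate, 97 of which were called G1, 32 genes were higher and 6 lower, where 15.3% and 7.43% of all genes were. Of these 6, 4 were also lower over all kept cells: Hist1h2bc, Hist1h1c and Hist3h2a, with intervals below 1, and Hist2h3c1, with 8 UMIs in S and 4 in G1. The others, Hist1h4j and Hist1h4n, had 5 and 6 UMIs in S and 3 each in G1 and are named after their values were seen; the intervals of these last 3 genes spanned 1. Too few UMIs were left there to call 10 of the 62: both groups had 3 UMIs or fewer, or a group at 0, set to 3 counts, gave a ratio against its counts. Over the 60 genes with at least 50 UMIs, the ratio had the same sign in both sets for 54 (90.0%), close to the 86.6% of 12570 genes with at least 50 UMIs, with a Pearson correlation of 0.857 and a Spearman correlation of 0.798 across genes, given as a description because the sets share the phase calls and gene models.

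**Figure D1:**
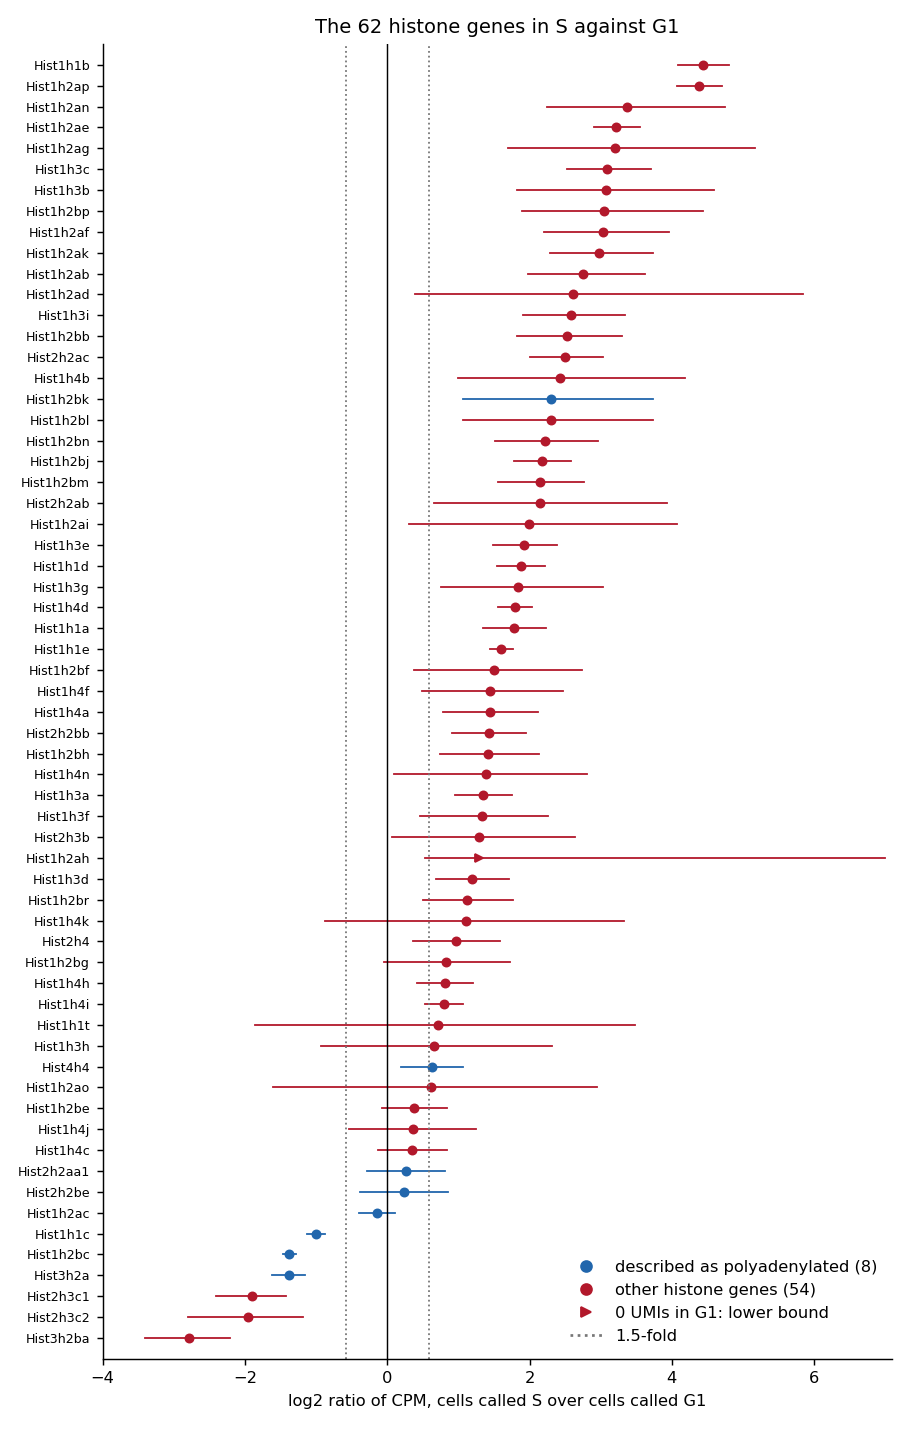
Log2 ratio of CPM in cells called S over cells called G1 for each of the 62 histone genes, with exact 95% counting intervals. Blue marks the 8 genes described as polyadenylated, red the other 54, and the dotted lines 1.5-fold. The triangle, labelled a lower bound, marks a gene with 0 UMIs in G1, whose ratio was taken with G1 set to 3 counts. The ratios run from -2.78 for Hist3h2ba to 4.43 for Hist1h1b, with 50 genes above the upper line and 6 below the lower one.

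The highest ratios were those of the linker histone gene Hist1h1b and of 4 H2A genes, Hist1h2ap, Hist1h2an, Hist1h2ae and Hist1h2ag. Hist1h1b was at 4.68 CPM in G1 and 59.5 CPM in S in set 1 and at 1.92 and 67.8 CPM in set 2, a pooled ratio of 21.6 (17.0 to 27.8). Hist1h2ap was at 5.55 and 93.8 CPM in set 1 and at 2.68 and 69.6 CPM in set 2, a pooled ratio of 20.9 (16.9 to 26.1). Both genes were lower in G1 than in S in each set. They are named for their pooled ratio, to which both sets contribute, so this is a description only. The ratio of Hist1h2ae was 9.32 (7.49 to 11.7). Hist1h2an, with 271 UMIs, had a ratio of 10.3 (4.72 to 26.8), and Hist1h2ag, with 203 UMIs, a ratio of 9.20 (3.24 to 35.9). The intervals of these sparse genes overlap that of Hist1h1b, so their order is not settled at this depth. Hist1h2ah, named after its values were seen, had 0 UMIs in G1 and 6 in S. Its ratio of 2.45 comes from setting G1 to 3 counts and leaves out the counting error in S, so it is not a lower limit.

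Other abundant genes had smaller ratios and differed in whether S or G2M was higher. Hist1h1e was at 18.2 CPM in G1, 55.3 CPM in S and 61.1 CPM in G2M, with a ratio of S over G1 of 3.03 (2.71 to 3.40). Hist1h4d was at 8.30, 28.7 and 53.9 CPM, with a ratio of 3.46 (2.94 to 4.09). Hist1h1b was about level between S and G2M, at 64.5 and 63.5 CPM, while Hist1h4d was 1.88 (1.72 to 2.06)-fold higher in G2M. Over the lists, the 54 genes were 1.29 (1.26 to 1.32)-fold higher in G2M than in S and the 8 genes 1.28 (1.22 to 1.33)-fold. At the 1.5-fold mark 21 of the 62 were higher in G2M than in S and 1 lower, where 10.5% and 8.18% of all genes were. The lower one was the H4 gene Hist1h4a, named after its values were seen, at 3.31 CPM in S and 2.2 CPM in G2M. Against G1, 54 of the 62 were higher in G2M and 6 lower, where 17.0% and 39.6% of all genes were.

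Within the cycling cells the 54 genes were lowest at angles below -30 degrees and highest between 30 and 60. Cells called S or G2M were ordered by the angle of their S score (x) and G2M score (y), in bins of 30 degrees: below 0 degrees the G2M score is negative, and above 90 the S score is. The 54 genes were at 115 CPM from -90 to -60 degrees and 115 CPM from -60 to -30, beside 119 CPM in cells called G1. They were at 228 CPM from -30 to 0, 694 CPM from 0 to 30 and 830.0 CPM from 30 to 60, then at 648 CPM from 60 to 90 and 402 CPM from 90 to 120 degrees. Both sets had their highest level from 30 to 60 degrees, 759 CPM in set 1 and 915 CPM in set 2. The 8 genes were at 216 CPM from -90 to -60 degrees and lowest in set 1 from 0 to 30 degrees (102 CPM) and in set 2 from -30 to 0 (123 CPM). The last bin, 120 to 180 degrees, held 89 cells with a median of 2424 UMIs, against 23508 to 37668 in the other bins; the median was 1595 in its 53 cells of set 1 and 15671.5 in its 36 cells of set 2. There the 54 genes were at 373 CPM and the 8 genes at 337 CPM. The 8 genes were at 261 CPM in set 1, below the 301 CPM of its G1 cells, and at 399 CPM (350.0 to 453) in set 2, above the 327 CPM of its G1 cells.

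Of the 45 genes with at least 200 UMIs, 5 were highest in cells called G1, 5 from 0 to 30 degrees, 16 from 30 to 60, 7 from 60 to 90 and 12 in the last bin. The 12 had 4 to 92 UMIs in that bin, with a median of 11, and the counting interval lay above the gene's next highest level for 1 of them, so the place of the others is not settled at this depth. The same counts were not made over all genes, and the bins differ in cells and depth. They therefore describe these 45 genes and are not shown to be a trait of histone genes. Hist1h1b was at 3.29 CPM from -90 to -60 degrees, 133 CPM from 30 to 60 and 27.5 CPM from 90 to 120. In the same bins Hist1h2ap was at 4.23, 150.5 and 60.1 CPM. Hist1h4d was highest one bin later, at 52.0 CPM from 30 to 60 and 58.8 CPM from 60 to 90 degrees. Hist1h2bc ran the other way, at 197 CPM in G1, 56.7 CPM from 30 to 60 degrees and 104 CPM from 90 to 120.

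**Figure D2:**
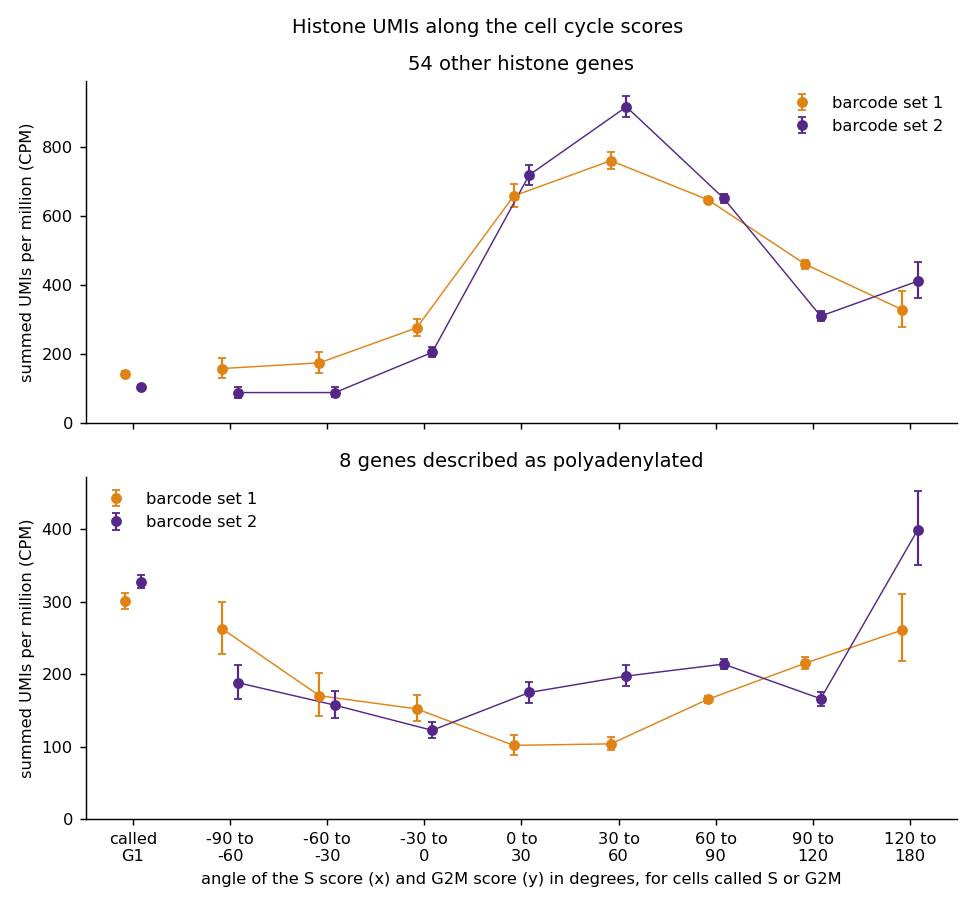
Summed CPM of the 54 other histone genes (top) and of the 8 genes described as polyadenylated (bottom), in cells called G1 and in bins of the angle of S and G2M score in cells called S or G2M, for barcode sets 1 (orange) and 2 (purple), with exact 95% counting intervals. In the top panel both sets are highest from 30 to 60 degrees, at 759 and 915 CPM, and in the bottom panel both are higher in cells called G1 than there.

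Genes whose annotation ends near the stem-loop had higher ratios than genes whose annotation runs on. The 20 genes with under 100 bases past the stem-loop had a median log2 ratio of S over G1 of 2.36, with 19 higher and 0 lower. The 16 genes with no match and a 3′ UTR under 100 bases or none had a median of 2.07, all 16 higher. The 22 genes with 100 bases or more past the stem-loop had a median of 0.75, with 13 higher and 5 lower, and the 4 genes with no match in a longer 3′ UTR a median of 0.68. A poly(A) signal, AATAAA or ATTAAA, was in the last 50 annotated bases of 16 genes, with a median of 0.67, and not in 46, with a median of 1.85. The annotation does not show which end was used in these cells. The share of unique windows moved with the classes, with a median of 100% in the 22 genes that run on and 38.7% in the 20 that do not. The median log2 ratio was 1.96 in the 34 genes with under 50% of windows unique and 0.90 in the 28 others, which hold 5 of the 6 genes lower in S. Among genes with 50% or more of windows unique, it was 0.67 in the 18 that run on and 2.33 in the 4 that end near the stem-loop. Among the rest it was 1.47 in 4 and 2.36 in 16 genes.

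**Figure D3:**
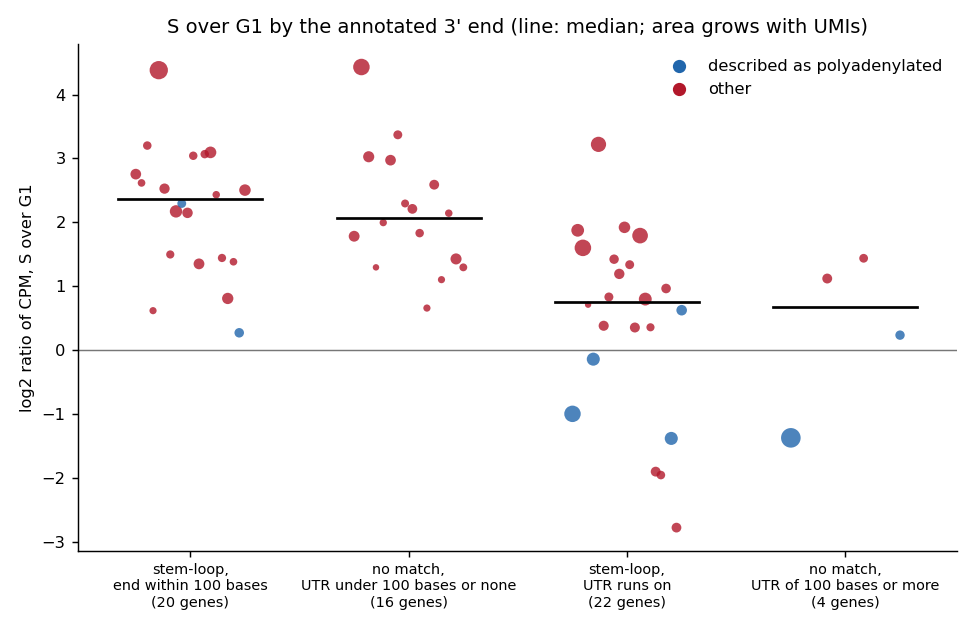
Log2 ratio of CPM in S over G1 for the 62 histone genes by annotated 3′ end; each point is a gene, its area grows with its UMIs, blue marks genes described as polyadenylated, and the line is the median of the class. The medians are 2.36 and 2.07 in the classes that end near the stem-loop or have a short 3′ UTR, and 0.75 and 0.68 in the classes that run on, which hold all 6 genes lower in S.

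The 8 genes described as polyadenylated did not move as a group. Hist1h2bc was at 178 CPM in G1 and 62.2 CPM in S in set 1 and at 209 and 84.7 CPM in set 2, a pooled ratio of 0.386 (0.363 to 0.409). Hist1h1c was at 66.1 and 37.5 CPM in set 1 and at 75 and 34.7 CPM in set 2, a ratio of 0.50 (0.457 to 0.547). Hist3h2a was at 28.3 and 9.60 CPM in set 1 and at 25.9 and 10.7 CPM in set 2, a ratio of 0.383 (0.325 to 0.450). These 3 genes were lower in S in both sets, which are parts of 1 sample and of the pooled ratio. The H2A genes Hist1h2ac and Hist2h2aa1 had ratios of 0.906 (0.763 to 1.07) and 1.21 (0.825 to 1.76) and the H2B gene Hist2h2be of 1.18 (0.767 to 1.80), all with intervals that span 1. Without cells past the enteroendocrine cut described below, the ratio of Hist2h2be was 2.75 (1.42 to 5.72) and that of Hist1h2ac 0.726 (0.604 to 0.872). The H4 gene Hist4h4 had a ratio of 1.54 (1.14 to 2.09). Hist1h2bk, an H2B gene with 258 UMIs, 7 of them in G1 and 0 in ungated G1 cells, had a ratio of 4.91 (2.09 to 13.3), and its annotation ends 30 bases past the stem-loop with no poly(A) signal.

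Of the other 54 genes, 3 were lower in S: the H2B gene Hist3h2ba and the H3 genes Hist2h3c1 and Hist2h3c2. Hist3h2ba was at 9.91 CPM in G1 and 1.32 CPM in S in set 1 and at 9.96 and 1.53 CPM in set 2. Hist2h3c1 was at 12.6 and 2.89 CPM in set 1 and at 5.91 and 1.87 CPM in set 2. Hist2h3c2 was at 3.59 and 1.05 CPM in set 1 and at 3.30 and 0.766 CPM in set 2. All 3 were higher in G1 in both sets, but they were picked by the pooled ratio, to which both sets contribute.

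The G1 UMIs of these 3 genes and of Hist3h2a lay mostly in cells with enteroendocrine markers, those of hormone-secreting cells. Of the cells called G1, 603 had at least 10 marker UMIs per 10000 UMIs and 591 had fewer; the former held 38.0% of all G1 UMIs. They held 93.6% (89.7% to 96.4%) of the G1 UMIs of Hist3h2ba, 73.8% (67.1% to 79.7%) of those of Hist2h3c1, 64.2% (52.8% to 74.6%) of those of Hist2h3c2 and 61.9% (58.0% to 65.6%) of those of Hist3h2a (exact binomial intervals). This was not limited to genes lower in S: the interval lay above the share of all G1 UMIs for 13 of the 62 genes, 4 of them lower and 8 higher in S, while 52.0% of the 15474 genes met the same rule. Among the 13 were Hist2h2be, at 75% (60.4% to 86.4%), and the H4 gene Hist2h4, named after its values were seen, at 71.8% (55.1% to 85.0%) with a ratio of S over G1 of 1.95 (1.29 to 2.99). Hist3h2ba was at 24.5 CPM past the cut and 1.02 CPM in the other G1 cells, a ratio of 24.1 (14.3 to 43.7). Without the cells past the cut, Hist3h2ba was no longer lower in S, with a ratio of S over G1 of 1.38 (0.708 to 2.79). Hist2h3c1, Hist2h3c2 and Hist3h2a kept ratios below 1, at 0.622 (0.406 to 0.948), 0.449 (0.232 to 0.846) and 0.615 (0.507 to 0.746). Hist1h2bc and Hist1h1c did not share this pattern: Hist1h2bc was at 155 CPM past the cut and 223 CPM in the others, and Hist1h1c at 74.7 and 69.7 CPM. The median depth was 14491 UMIs past the cut and 25904 in the others.

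**Figure D4:**
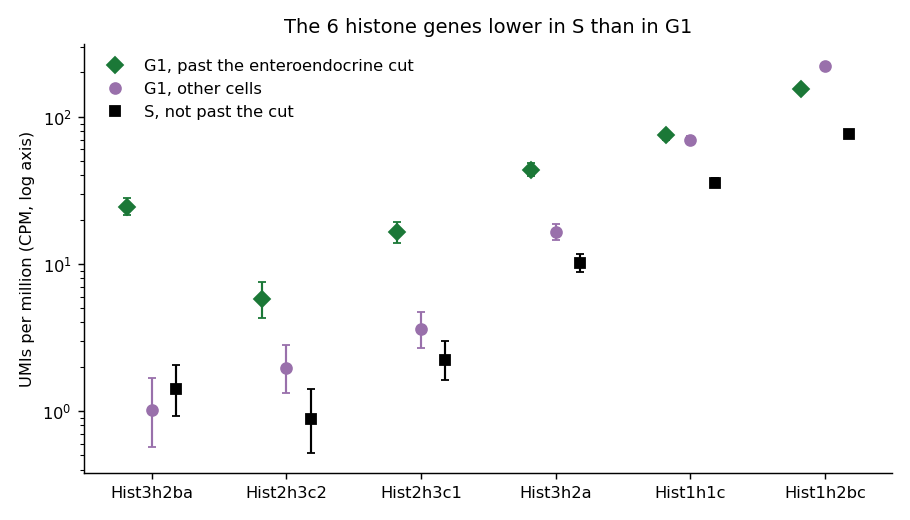
CPM on a log axis of the 6 histone genes at least 1.5-fold lower in S than in G1, in G1 cells past the enteroendocrine cut (diamonds), other G1 cells (circles) and S cells not past the cut (squares), with exact 95% counting intervals. Hist3h2ba is at 24.5 CPM past the cut and at 1.02 and 1.41 CPM in the others, while Hist1h2bc is highest in other G1 cells, at 223 CPM.

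Neighbouring H2A and H2B genes could differ widely. The annotation holds 10 pairs of an H2A and an H2B gene that point away from each other with at most 400 bases between their starts; pairs are named here after their values were seen. Hist1h2ap and Hist1h2br start 236 bases apart and had log2 ratios of S over G1 of 4.38 and 1.12. Hist1h2ae and Hist1h2bg, 176 bases apart, had 3.22 and 0.83. Hist1h2an and Hist1h2bp, 243 bases apart, were close, at 3.37 and 3.04. The median absolute difference was 1.08 over the 10 pairs and 1.55 over the 246 other H2A and H2B combinations.

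Cells were also gated by summed markers; a gate is a range of that sum, not a cell type. In the 287 cells past the enteroendocrine gate alone, the 54 genes were at 214 CPM against 546 CPM in the 724 cells past no gate, a ratio of 0.392 (0.366 to 0.420), and the 8 genes were at 244 and 202 CPM, a ratio of 1.21 (1.13 to 1.29). Of the 62 genes 42 were at least 1.5-fold lower in the gate, where 15.7% of all genes were, and 4 higher, where 44.9% were. Phase moved with the gate: 260 of the 287 cells were called G1, against 97 of the 724. Among cells called G1 both directions turned, with a ratio of 1.26 (1.08 to 1.47) for the 54 genes and 0.708 (0.638 to 0.785) for the 8. Over cells of all phases, the ratio of the 8 genes was 0.976 as a mean of each cell's own CPM. Hist3h2ba was at 25.8 CPM in the gated G1 cells, with 92 UMIs, and had 0 UMIs in the ungated G1 cells.

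In the 1287 cells of the enterocyte gate, of absorptive cell markers, the 54 genes were at 465 CPM and the 8 genes at 240.2 CPM, ratios to ungated cells of 0.852 (0.833 to 0.873) and 1.19 (1.15 to 1.23). At the 1.5-fold mark 0 of the 62 were higher and 18 lower, where 12.1% and 7.02% of all genes were. This gate is loose: 837 cells lay within a factor of 5/4 of its cut, and 729 of its cells were called G2M. At a stricter cut of 100 per 10000 UMIs, set after the data were seen, the 293 cells held 176 CPM of the 54 genes and 329 CPM of the 8. Among cells called G1, the ratios of the first gate to ungated cells were 0.624 (0.539 to 0.724) for the 54 genes and 0.899 (0.824 to 0.981) for the 8, so that the 8 genes turned. Their ratio also turned to 0.943 with the gate cuts lowered and to 0.922 as a mean of each cell's own CPM. In the 1150 cells of the stem gate the 54 genes were at 505 CPM and the 8 genes at 129 CPM, the lowest level of the 8 among gates of 50 or more cells. The 67 cells of the goblet gate were at 625 and 229 CPM and the 513 cells past several gates at 222 and 348 CPM. Phase and depth moved with these gates too. Of the 67 cells 39 were called G2M, with a median of 8724 UMIs over the 67. Of the 513 cells 390 were called G1, with a median of 14263 UMIs over the 513. The revival, tuft and Paneth gates held under 50 cells and are not described.

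At equal depth, fewer G1 cells than S or G2M cells held RNA of the 54 genes. Thinned to 2000 UMIs per cell, 24.2% of cells called G1 were expected to hold a UMI of these genes, 46.2% of cells called S and 59.7% of cells called G2M. Without thinning the shares were 80.2%, 90.5% and 94.4%. Cells under 2000 UMIs were left out, 57 in G1, 81 in S and 204 in G2M. For Hist1h1b the thinned share was 0.897% in G1 and 10.5% in S, and for Hist1h2ap 0.944% and 12.9%. Hist1h2bc had the reverse order, 26.1% in G1 and 12.9% in S. Free RNA can give such UMIs, and as no cell type here lacks histone genes, no background share was available.

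The histone level also moved with depth. Cells were split by UMI count into 4 depth classes of equal size. In the shallowest class (median 4559) the 54 genes were at 767 CPM (745 to 789), against 319.9, 544 and 443 CPM in the next 3. The 8 genes were at 280.1, 242, 180 and 201 CPM. Within G2M the shallowest class held 1977 CPM of the 54 genes and the others 478 to 711 CPM; within S it held 1260.0 CPM and the others 329.9 to 492 CPM, and within G1 230.1 CPM and 69.2 to 122 CPM. The 8 genes turned direction in the shallowest class: they were at 352 CPM in G2M and 259.6 CPM in G1 there, a ratio of 1.36 (1.22 to 1.51), against ratios of 0.508 to 0.580 in the next 3. Their ratio of S over G1 in the shallowest class was 0.922 (0.775 to 1.09). Against the second class 51 of the 62 genes were at least 1.5-fold higher in the shallowest, where 27.9% of all genes were, and 0 lower, where 6.12% were. Hist1h2bc was at 106 CPM in the shallowest class and 131 CPM in the second, a ratio of 0.808 (0.741 to 0.880). Hist1h2ap was at 41.0 and 45.8 CPM, a ratio of 0.894 (0.776 to 1.03), and was highest in the third class, at 106 CPM. Split at the median depth, the 54 genes were 1.16 (1.14 to 1.19)-fold higher in deeper cells, but lower in deeper cells within G1, with a ratio of 0.464, and within G2M, with 0.644. The ratio of the 54 genes also fell below 1 as a mean of each cell's own CPM, at 0.647, and without the mitochondrial limit, at 0.418. The 8 genes had a ratio of 0.770 (0.748 to 0.791), which turned to 1.07 within G1.

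**Figure D5:**
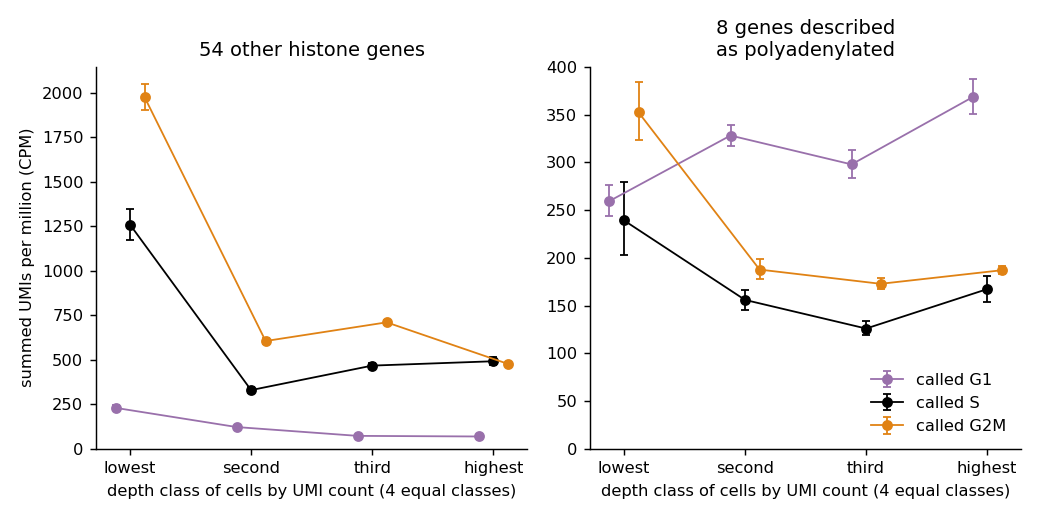
Summed CPM of the 54 other histone genes and of the 8 genes described as polyadenylated, by depth class (4 equal classes by UMI count) and by called phase, with exact 95% counting intervals. The shallowest class stands apart for the 54 genes, at 1260.0 CPM in S and 1977 CPM in G2M, and in each class S is above G1 for these genes.

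Between the barcode sets, the 54 genes were at 520.0 CPM in set 1 and 405 CPM in set 2, a ratio of set 2 over set 1 of 0.778 (0.765 to 0.792) that turned to 1.07 without the mitochondrial limit. The 8 genes were at 189 and 229 CPM, a ratio of 1.21 (1.18 to 1.24). Phase moved with the sets, as 1406 of 2300 cells of set 1 and 706 of 1766 of set 2 were called G2M. Within G2M the ratio of the 54 genes was 0.955 (0.936 to 0.975), within S 0.826 (0.792 to 0.862) and within G1 0.738 (0.685 to 0.795); that of the 8 genes was 1.18, 1.14 and 1.09. At the 1.5-fold mark 0 of the 62 were higher in set 2 and 9 lower, where 8.49% and 7.74% of all genes were.

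Replacement histones are encoded by separate genes, most of them with ordinary polyadenylated mRNAs; H2afx is known to give both a stem-loop and a polyadenylated mRNA. H3f3a and H3f3b, which encode H3.3, were near level, at 1069 and 1409 CPM in G1 and 1057 and 1335 CPM in S. H2afz and H2afv, which encode H2A.Z proteins, were higher in S, with ratios of 1.95 (1.91 to 1.99) and 2.30 (2.19 to 2.41). H2afy, which encodes macroH2A, had a ratio of 1.72 (1.64 to 1.80), H2afj of 0.953 (0.925 to 0.981) and the linker histone gene H1f0 of 0.673 (0.642 to 0.705). Cenpa, the centromeric H3, was at 13.6, 38.3 and 244 CPM in G1, S and G2M, and H2afx, the H2A.X gene, at 28.5, 52.9 and 139.9 CPM, both highest in G2M. Of the 10 replacement genes 5 were at least 1.5-fold higher in S than in G1 and 1 lower, beside 15.5% and 41.5% of all genes. The lower one, H1fx, a linker histone gene named after its values were seen, was at 7.75 CPM in G1 and 0.310 CPM in S, and 98.4% (95.3% to 99.7%) of its G1 UMIs were in cells past the enteroendocrine cut.

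Among 15 genes of histone mRNA transcription, processing and decay, 10 were at least 1.5-fold higher in S than in G1 and 1 lower, beside 15.5% and 41.5% of all genes, with a median log2 ratio of 0.75. Slbp, which encodes stem-loop binding protein, was at 48.5 CPM in G1 and 161 CPM in S in set 1 and at 45.4 and 159 CPM in set 2, a pooled ratio of 3.43 (3.20 to 3.68). In G2M it was at 70.8 CPM, a ratio to S of 0.443 (0.424 to 0.464), whereas the 54 histone genes were higher in G2M than in S. Of 18 histone chaperone genes 12 were higher in S than in G1 and 0 lower, beside the same shares of all genes. From S to G2M 0 were higher in G2M and 6 lower, beside 10.5% and 8.18% of all genes.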

How the data were processed

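Single cells of mouse small intestinal organoids were measured by 3′ single-cell RNA sequencing. The deposited counts are whole UMIs per gene and barcode, not normalized; the authors made them with Cell Ranger 3.1.0, and STAR 2.7.3a and bcl2fastq 2.20.0 are also named, per the submitters' processing notes. The genome build and annotation are not given in the sources used here. Kept barcodes had 500 genes or more, 1000 UMIs or more and no more than 20% of UMIs from mitochondrial genes. Phases were called with scanpy 1.11.5 on log values of counts per 10000 UMIs. UMIs were summed over the cells of a group and divided by the group's total (CPM), with exact 95% Poisson, conditional ratio or Clopper-Pearson intervals (scipy 1.17.1). UMIs and cells of 1 sample are not replicates, so no test was made. A gene was counted as higher or lower at a CPM ratio of 1.5, with a group at 0 UMIs set to 3 counts; it was not called where both groups had 3 UMIs or fewer, or where that floor put the ratio against the counts. A cell entered a gate when its summed markers reached 10 per 10000 UMIs (enteroendocrine, goblet, Paneth), 20 (enterocyte) or 3 (tuft, revival, stem, the last only when past no other). No doublet caller was run; an alternative left out the top 5% of cells by UMIs. The scripts were tested on simulated data.

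Genes named with values were the 8 with the most UMIs, the 5 highest and 5 lowest ratios of S over G1 among genes with at least 50 UMIs, the described-polyadenylated genes, replacement genes with at least 1000 UMIs, and Slbp; others are said to be named after their values were seen. The list of genes described as polyadenylated comes from general knowledge, partly of human counterparts. The members and lists were chosen with earlier results of these data known.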

Additional observations from a re-analysis of the deposited data

Results flagged for a closer look

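Barcodes over the 20% mitochondrial limit, used only in the alternative without that limit, also held histone UMIs. Per 1000000 non-mitochondrial UMIs, the 54 other genes were at 518 in the kept barcodes, at 1363 in the 4353 barcodes with over 20% to 50% mitochondrial UMIs and at 1838 in the 5428 barcodes with over 50%. The 8 genes described as polyadenylated were at 229.5, 357.0 and 411.0. The median depth was 29222, 5108 and 4623 UMIs.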

How the results depend on the processing

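No paired analysis was possible because the 2 samples hold identical files and no result comes from a test. S over G1 kept its direction for both lists, and G2M over G1 for the 54 genes, under each alternative run, while G2M over G1 of the 8 genes did not. Within depth classes and gates with 50 cells or more of both phases, S over G1 kept its direction in 7 of 7 for both lists, though that of the 8 genes was 0.922 (0.775 to 1.09) in the shallowest class, with an interval that spans 1, and G2M over G1 in 8 of 8 for the 54 genes. For the 8 genes G2M over G1 kept it in 6 of 8, and was 1.36 (1.22 to 1.51) in the shallowest class and 1.02 (0.915 to 1.14) in cells past several gates. The count of genes higher in S moved to 32 in ungated cells; under the other alternatives it was 39 to 52, and the count of genes lower in S was 5 to 7 under all of them. For S over G1, the ratio of the 8 genes, 0.462, moved to 0.551 without the mitochondrial limit, 0.591 as a mean of each cell's own CPM, 0.412 between cells at the top and bottom by list share, 0.490 in ungated cells and 0.440 without cells past the enteroendocrine cut. For S over G1, the ratio of the 54 genes, 3.84, moved to 2.91 without the mitochondrial limit, 3.60 in set 1, 4.04 in set 2, 3.45 with phases called at 5000 UMIs, 5.33 between cells at the top and bottom by list share, 3.40 in ungated cells and 4.78 without cells past the enteroendocrine cut. For G2M over G1, the ratio of the 8 genes, 0.589, moved to 0.751 without the mitochondrial limit, 0.726 as a mean of each cell's own CPM, 0.631 in set 2, 0.722 between cells at the top and bottom by list share, 0.542 in ungated cells and 0.563 without cells past the enteroendocrine cut. For G2M over G1, the ratio of the 54 genes, 4.94, moved to 4.24 without the mitochondrial limit, 5.16 without the top 5% of cells by UMIs, 4.60 as a mean of each cell's own CPM, 4.21 in set 1, 5.45 in set 2, 5.14 with phases called at 5000 UMIs, 7.16 between cells at the top and bottom by list share, 4.70 in ungated cells and 6.18 without cells past the enteroendocrine cut. For the enteroendocrine gate over ungated cells, the ratio of the 8 genes, 1.21, moved to 1.07 in set 1, 1.47 with the cuts raised and 1.40 with all cells past the enteroendocrine cut and turned direction at 0.976 as a mean of each cell's own CPM and 0.708 within G1. For the enteroendocrine gate over ungated cells, the ratio of the 54 genes, 0.392, moved to 0.312 as a mean of each cell's own CPM, 0.349 without the 3 cells of the group richest in the list, 0.292 in set 1, 0.468 in set 2, 0.540 with the cuts lowered, 0.363 with the cuts raised and 0.344 with all cells past the enteroendocrine cut and turned direction at 1.26 within G1. For the enterocyte gate over ungated cells, the ratio of the 8 genes, 1.19, moved to 1.32 in set 2, 1.73 with the cuts raised and 1.49 at the stricter enterocyte cut and turned direction at 0.922 as a mean of each cell's own CPM, 0.943 with the cuts lowered and 0.899 within G1. For the enterocyte gate over ungated cells, the ratio of the 54 genes, 0.852, moved to 0.594 without the mitochondrial limit, 0.553 as a mean of each cell's own CPM, 0.903 in set 1, 0.577 in set 2, 0.940 with the cuts lowered, 0.609 with the cuts raised, 0.624 within G1, 0.914 without cells under 5000 UMIs and 0.320 at the stricter enterocyte cut. For deeper over shallower cells, the ratio of the 8 genes, 0.770, moved to 0.916 without the mitochondrial limit, 0.746 without the top 5% of cells by UMIs, 0.680 as a mean of each cell's own CPM, 0.713 in set 1, 0.846 in set 2, 0.835 within S, 0.840 without cells under 5000 UMIs and 0.836 within G2M and turned direction at 1.07 within G1. For deeper over shallower cells, the ratio of the 54 genes, 1.16, moved to 1.19 without the 3 cells of the group richest in the list, 1.07 in set 1, 1.21 in set 2, 1.11 within S and 1.30 without cells under 5000 UMIs and turned direction at 0.418 without the mitochondrial limit, 0.647 as a mean of each cell's own CPM, 0.464 within G1 and 0.644 within G2M. For set 2 over set 1, the ratio of the 8 genes, 1.21, moved to 1.29 without the mitochondrial limit, 1.13 without the top 5% of cells by UMIs, 1.16 as a mean of each cell's own CPM, 1.09 within G1, 1.14 within S and 1.18 within G2M. For set 2 over set 1, the ratio of the 54 genes, 0.778, moved to 0.849 as a mean of each cell's own CPM, 0.738 within G1, 0.826 within S and 0.955 within G2M and turned direction at 1.07 without the mitochondrial limit. The share of G1 cells with a UMI of the 54 genes was 34.6% without the mitochondrial limit, 28.1% in set 1, 21.1% in set 2, 44.0% at 5000 UMIs and 80.2% without thinning. The share of S cells with a UMI of the 54 genes was 50.4% without the mitochondrial limit, 51.0% in set 1, 66.1% at 5000 UMIs and 90.5% without thinning. Single genes whose ratio of S over G1 turned direction included Hist2h3b (0.967 in set 1) and Hist3h2ba (1.38 without cells past the enteroendocrine cut). In ungated cells Hist1h4n (0.611), Hist1h4j (0.509), Hist1h4i (0.974) and Hist1h3g (0.713) also turned. Of 526 such values of single genes under alternatives, 442 stayed within their counting interval. The causes were not tested. Alternatives in ungated cells, at the stricter enterocyte cut, without cells under 5000 UMIs, within G2M, within depth classes and gates, and with or without all cells past the enteroendocrine cut were chosen after seeing the data. Counting error limits the genes under 100 UMIs most.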
